A study of Homo sapiens with 12 samples.

Results

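The EGR, IER and DUSP early response genes were followed in HK-2 cells, an immortalised human kidney proximal tubule line, exposed to aristolochic acid I (AAI), a plant toxin that forms DNA adducts in kidney tubule cells. The set held 10 genes, EGR1, EGR2, EGR3, IER2, IER3, IER5, DUSP1, DUSP4, DUSP5 and DUSP6, chosen by name among the 35238 gene rows of the deposited expression table. All 10 were present in the table, and 9 of them passed the filter on low values (at least 1 CPM, counts scaled per library, in 3 of the libraries compared). All cells carried an siRNA at 10 nM, either a scrambled sequence (SCR) or one against POLR2A (siB), the gene of the largest RNA polymerase II subunit. The siRNA was added together with 25 µM AAI or its solvent DMSO, and RNA was taken at 24 h. This gave 4 groups of 3 libraries, SCR DMSO, SCR AAI, siB DMSO and siB AAI. The group of each library was read from its title, since another label gave DMSO as the treatment of every library. The labels name a single cell line and do not say whether the 3 libraries of a group came from separate cultures, so p-values measure the spread between these libraries only. The comparisons address how injury by AAI, with and without lowered POLR2A, changed these transcripts.

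Early response genes are transcribed within minutes of a growth factor or stress signal, without new protein synthesis, and their mRNAs usually decay fast. EGR1, EGR2 and EGR3 encode zinc-finger transcription factors, and EGR1 is a classical target of ERK signalling through serum response factor and its ETS partners. IER2, IER3 and IER5 are short genes induced early by serum and stress; IER3 and IER5 are best known for roles in cell survival and the heat shock response. DUSP genes of this kind encode phosphatases that remove phosphate from MAP kinases and so form a negative feedback loop. DUSP5 acts on ERK in the nucleus and DUSP6 on ERK in the cytoplasm, DUSP4 is a nuclear phosphatase, and DUSP1 acts on p38 and JNK as well as ERK. In the kidney tubule, EGR1 is known to be induced early after injury. The RNA here was taken at a single time, well after the first wave of such genes usually peaks.

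The promoters are shown first because 3 genes carried the contrasts described below: DUSP6 and EGR1 varied together from library to library, and DUSP1 did not vary with them. A RefSeq promoter sequence (build GRCh38.p14) was matched for 6 of the 10 genes, with 8 promoters in all because EGR2 had 3, and no promoter was matched for EGR3, IER3, DUSP4 or DUSP5. Each line below gives the 250 bases before the annotated start, 5′ to 3′ on the strand of the gene. They lie at chr5:138465229-138465478 on the plus strand for EGR1, at chr12:89352502-89352751 on the minus strand for DUSP6 and at chr5:172771196-172771445 on the minus strand for DUSP1. Capitals mark every match to the motifs searched.
EGR1: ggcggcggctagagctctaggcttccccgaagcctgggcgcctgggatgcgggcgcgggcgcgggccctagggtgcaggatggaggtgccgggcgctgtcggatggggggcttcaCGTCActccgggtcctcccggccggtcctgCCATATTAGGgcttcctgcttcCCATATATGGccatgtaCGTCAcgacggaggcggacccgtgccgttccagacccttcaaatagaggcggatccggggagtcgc
DUSP6: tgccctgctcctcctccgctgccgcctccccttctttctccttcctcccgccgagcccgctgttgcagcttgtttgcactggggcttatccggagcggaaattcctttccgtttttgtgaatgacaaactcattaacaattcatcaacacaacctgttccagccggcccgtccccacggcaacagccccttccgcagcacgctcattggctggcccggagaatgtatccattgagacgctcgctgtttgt
DUSP1: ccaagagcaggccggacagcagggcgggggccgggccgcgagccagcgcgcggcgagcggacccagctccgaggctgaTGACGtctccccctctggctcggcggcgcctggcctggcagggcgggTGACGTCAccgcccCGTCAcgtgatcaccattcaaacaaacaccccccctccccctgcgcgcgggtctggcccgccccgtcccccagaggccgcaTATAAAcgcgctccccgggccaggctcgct

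The motifs were searched on both strands over 300 bases, from 250 before to 50 after the start. The EGR1 promoter held 2 CArG boxes, the sequence that serum response factor recognises, at -105 to -96 and at -83 to -74 from the start. A CArG box was found in 1.293% of all 35116 promoters of the same length, and 1 of the EGR2 promoters also had one, at -71 to -62. The DUSP1 promoter held a full cyclic AMP response element, TGACGTCA, at -125 to -118, which 1.848% of promoters had, and a TATAAA box at -30 to -25, which 11.53% had. The shorter element TGACG, which overlaps the full element, was present in EGR1, EGR2, IER2 and DUSP1 and in 24.55% of all promoters. The ETS core, searched only in the extended form CCGGAA, was found in IER2 and IER5 and in 17.25% of all promoters. The shorter GGAA was not searched, and it or its complement TTCC stands in the printed EGR1 and DUSP6 sequences. The DUSP6 promoter had none of the motifs searched, so it is printed without capitals. No matched promoter of the set held the EGR site, searched as GCGTGGGCG or GCGGGGGCG and found in 5.769% of promoters, or the AP-1 site, TGACTCA or its complement TGAGTCA, found in 4.949%. A match describes the letters in the window and does not show that a factor bound there.

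**Figure D1:**
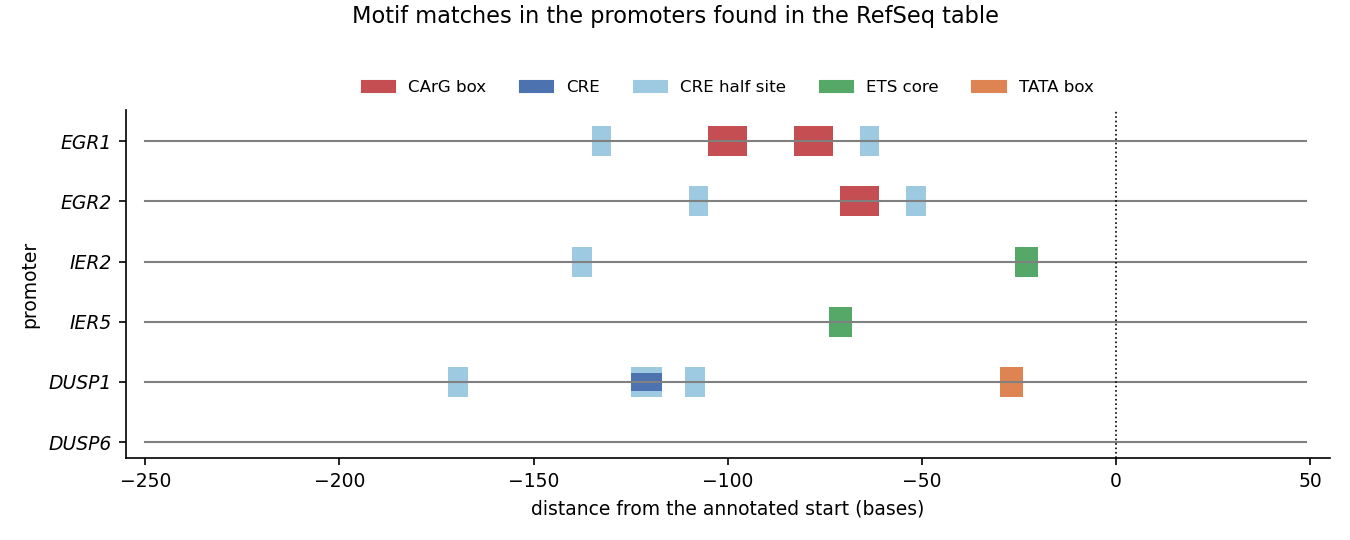
Positions of motif matches in 1 promoter each of the 6 matched genes. The horizontal axis is the distance from the annotated start in bases (dotted line at 0), each grey line is a 300-base window, and colours mark the motif. EGR1 shows 2 CArG boxes and EGR2, drawn for the promoter with a match, shows 1; DUSP1 shows the full response element and the TATA box, and the DUSP6 line is empty.

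All 10 are short genes. By the GENCODE 44 annotation of hg38 they spanned from 1350 bp for IER3 (chromosome 6, 30743199 to 30744548) to 17621 bp for DUSP4 (chromosome 8, 29333064 to 29350684). DUSP5 spanned 13627 bp on chromosome 10 (110497907 to 110511533), and the other 7 spanned between 3100 and 7172 bp. EGR1 (138465479 to 138469303) and DUSP1 (172768096 to 172771195) lie on chromosome 5, EGR2 (62811996 to 62819167) on chromosome 10 and EGR3 (22687659 to 22693480) on chromosome 8. IER2 (13150411 to 13154911) lies on chromosome 19, IER5 (181088700 to 181092900) on chromosome 1 and DUSP6 (89347235 to 89352501) on chromosome 12. The canonical transcript had no intron in IER5 and between 1 and 3 introns in the other 9. IER2, IER3, EGR3, DUSP1 and DUSP6 overlapped annotated antisense lncRNAs and EGR2 overlapped 1 lncRNA on its own strand. Whether counting used strand is not given in the sources used here, so reads of the antisense partners cannot be told apart from those of these 5 genes.

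Levels are given as CPM, read counts scaled to the same total in every library. The libraries held between 15844015 and 42805294 reads assigned to genes. Scaling by the median ratio over genes instead gave replicate 2 of SCR DMSO, the deepest library, a factor of 0.768. The other libraries had factors of 0.946 to 1.11, so the CPM values of that library depend most on the scaling. POLR2A, the target of the knockdown, was at 258, 288 and 306 CPM in SCR DMSO, at 673, 719 and 729 CPM in SCR AAI, at 138, 143 and 139 CPM in siB DMSO and at 266, 220 and 210 CPM in siB AAI. Every siB library was below every SCR library of the same treatment. The 5 epithelial keratin and adhesion genes had a summed level of 1107 to 1906 CPM and were all at a mean of at least 1 CPM. Most of this sum came from the keratins and EPCAM, and CDH1 was at 2.76 to 25.2 CPM. Of 9 proximal tubule markers, 3 reached a mean of 1 CPM, so the labelled tissue of origin was only partly visible in its markers. The 5 fibroblast markers summed to between 9.46 and 53.1 CPM. The 4 endothelial markers summed to between 3.75 and 5.62 CPM in siB AAI cells and to at most 2.50 CPM in the others, and the 5 immune markers summed to between 60.6 and 98.5 CPM. CD68 made up most of the immune sum, at 58.7 to 97.8 CPM, and CD3E was at 0 in every library. PTPRC was at 2.52 to 2.91 CPM in siB AAI cells and at most 1.34 CPM in the others, and CD14 reached 4.10 CPM in siB AAI, with overlap between groups. Their part in the changes described below was not tested.

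Set per kilobase of canonical transcript, so that genes can be compared, the mean over all 12 libraries was highest for IER3, at 88.0 CPM per kb. DUSP5 followed at 58.2 CPM per kb, then IER2 at 39.4, DUSP1 at 39.0 and DUSP6 at 27.7 CPM per kb. IER5 stood at 15.8 CPM per kb and EGR1 at 9.12, followed by EGR3 at 3.15, EGR2 at 1.31 and DUSP4 at 0.0806 CPM per kb. IER2 and DUSP1 were indistinguishable in this order, since their SD within SCR DMSO was 11.5 and 11.8 CPM per kb. IER5 and EGR1 also differed by less than their spread, with SDs of 9.33 and 6.89 CPM per kb in SCR AAI. EGR3 and EGR2 were the lowest of the tested genes, and DUSP4 was close to the limit of detection.

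EGR1 in SCR DMSO cells was at 16.9, 10.9 and 43.4 CPM in replicates 1 to 3, and in SCR AAI cells at 12.5, 51.2 and 48.5 CPM. In siB DMSO cells it was at 28.9, 31.7 and 29.8 CPM and in siB AAI cells at 19.1, 26.9 and 23.6 CPM. The SCR libraries were thus split, with replicate 3 of SCR DMSO close to the upper 2 SCR AAI libraries and replicate 1 of SCR AAI as low as the rest of SCR DMSO, while the siB libraries were tight and those with AAI all lay below those with DMSO. EGR2, a factor best known from nerve myelination, was at 1.94, 5.30 and 4.93 CPM in SCR DMSO and at 3.53, 3.58 and 4.54 CPM in SCR AAI. It was at 5.26, 4.73 and 3.79 CPM in siB DMSO and at 1.77, 4.20 and 3.16 CPM in siB AAI. All groups overlapped for this gene, which rested on 28 to 227 reads per library.

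EGR3, a close relative of EGR1 that is often induced after it, was the most variable gene of the set. It was at 1.29, 3.46 and 18.1 CPM in SCR DMSO and at 4.36, 36.3 and 7.91 CPM in SCR AAI. In siB DMSO it was at 8.63, 24.0 and 21.7 CPM and in siB AAI at 4.80, 28.5 and 11.6 CPM. Replicate 1 was the lowest in each of the 4 groups, and the ranges of all 4 groups overlapped.

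IER2 was at 51.9, 95.0 and 53.9 CPM in SCR DMSO and at 112, 99.1 and 88.1 CPM in SCR AAI. It was at 71.3, 84.4 and 84.7 CPM in siB DMSO and at 86.5, 82.3 and 89.3 CPM in siB AAI. Replicates 1 and 3 of SCR DMSO lay below all other libraries, and replicate 2 lay within the range of SCR AAI. IER3 was at 73.7, 128 and 92.7 CPM in SCR DMSO, at 108, 166 and 161 CPM in SCR AAI, at 88.1, 100.5 and 105 CPM in siB DMSO and at 67.9, 105 and 111 CPM in siB AAI. Replicates 2 and 3 of SCR AAI were the 2 highest IER3 values of all 12 libraries. IER5 was at 64.0, 87.7 and 30.3 CPM in SCR DMSO, at 133, 67.0 and 62.4 CPM in SCR AAI, at 53.5, 66.6 and 58.4 CPM in siB DMSO and at 70.5, 50.8 and 54.3 CPM in siB AAI. Its lowest value was in replicate 3 of SCR DMSO, where EGR1 was the highest of its group, and its highest in replicate 1 of SCR AAI, where EGR1 was the lowest of its group.

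DUSP1 was at 81.0, 105 and 57.2 CPM in SCR DMSO and at 91.8, 113 and 112 CPM in SCR AAI. It was at 49.6, 65.3 and 64.7 CPM in siB DMSO and at 68.0, 61.8 and 74.0 CPM in siB AAI. Every siB AAI library lay below every SCR AAI library. DUSP4 was at 0.185, 0.164 and 0.221 CPM in SCR DMSO, at 1.21, 0.227 and 0.509 CPM in SCR AAI, at 0.214, 0.0902 and 0.502 CPM in siB DMSO and at 1.07, 0.600 and 0.375 CPM in siB AAI. All 3 SCR AAI values were above all 3 SCR DMSO values, the nearest at 0.227 against 0.221 CPM. These values rest on 2 to 22 reads per library, where the limit that a count of 0 allows (3 reads) was between 0.0701 and 0.189 CPM, and DUSP4 did not pass the filter for any test.

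DUSP5 was at 44.3, 100.2 and 127 CPM in SCR DMSO and at 112, 205 and 202 CPM in SCR AAI. It was at 159, 175 and 167 CPM in siB DMSO and at 104, 161 and 173 CPM in siB AAI. All 3 siB DMSO libraries were above all 3 SCR DMSO libraries. DUSP6 was at 20.2, 22.0 and 77.9 CPM in SCR DMSO, at 73.9, 159 and 181 CPM in SCR AAI, at 115, 116 and 119 CPM in siB DMSO and at 64.1, 120.1 and 137 CPM in siB AAI. Replicates 1 and 2 of SCR DMSO were by far the lowest DUSP6 values, and replicate 3 of SCR DMSO overlapped SCR AAI only through replicate 1 of the latter. In bulk RNA, fewer cells that express a gene and less RNA per cell cannot be told apart.

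**Figure D2:**
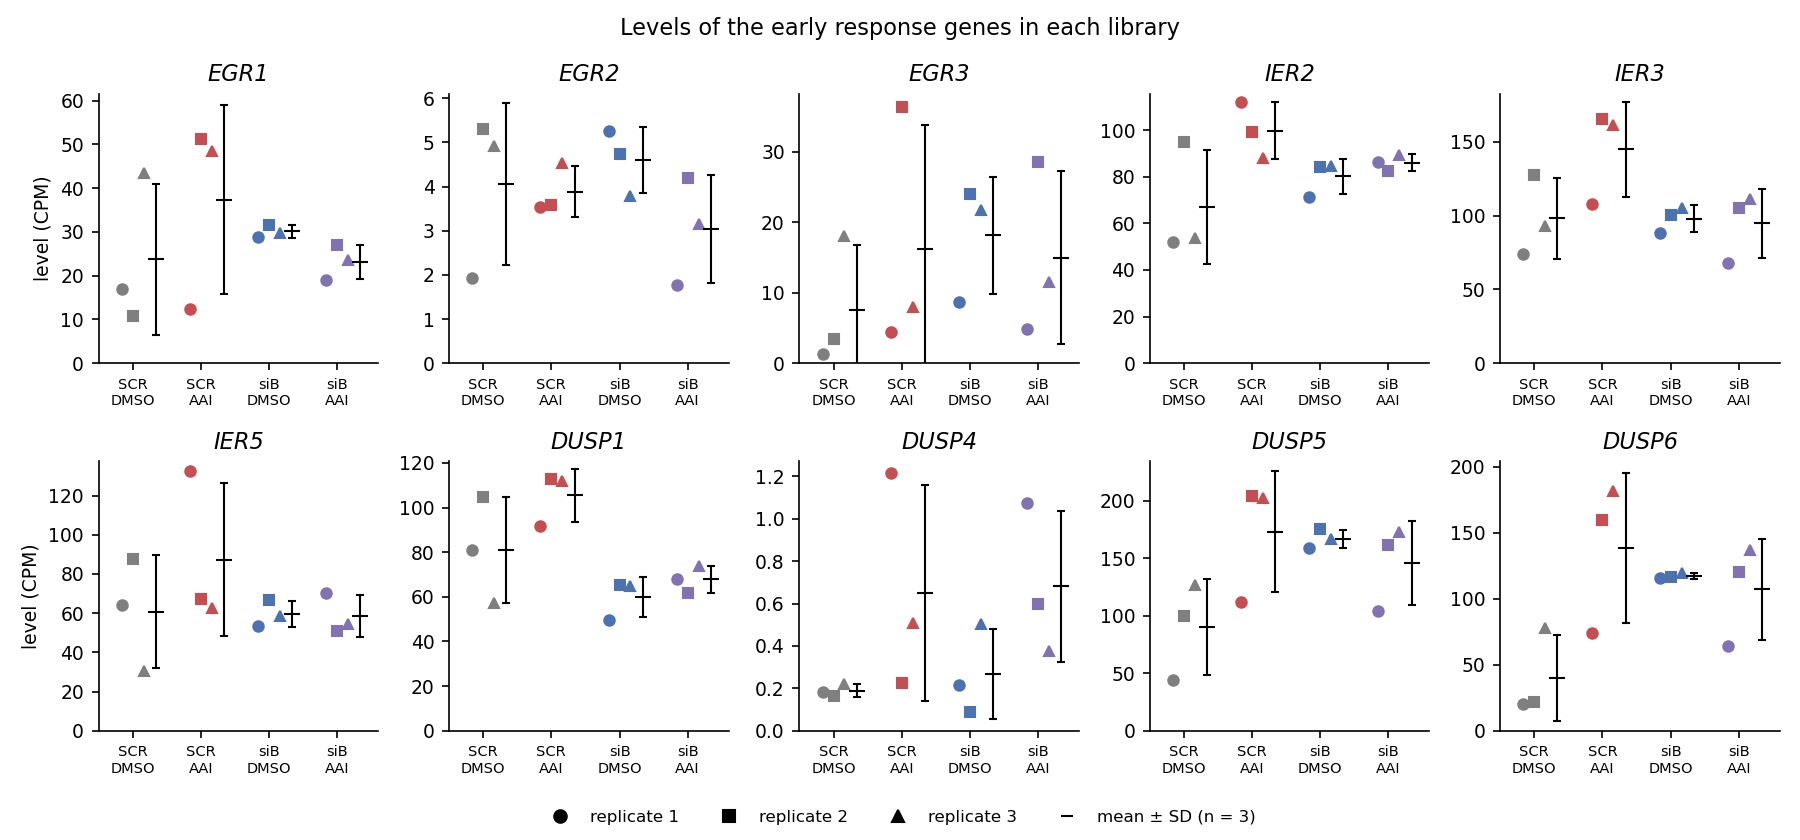
Level of each gene in CPM (vertical axes, linear, each gene on its own scale) in the 12 libraries, with colour and position for the group, marker shape for the replicate number, and black bars for the mean ± SD of 3 libraries. SD bars of EGR3 that would reach below 0 are cut at the axis; DUSP6 in SCR DMSO sits at 20.2, 22.0 and 77.9 CPM against 115 to 119 CPM in siB DMSO.

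In SCR cells, all 9 tested genes had a positive difference between AAI and DMSO, except that EGR2 turned to -0.15 under median-ratio scaling, and none passed the test. Changes are differences of log2(CPM + 1), a scale that understates changes of low genes such as EGR2 and EGR3, and a gene was called at an adjusted p under 0.05 in limma with at least a 2-fold change. The median difference of the 9 was 0.62, against 0.18 over all genes tested. DUSP6 had the greatest difference, 1.94 (SE 0.55, 95% interval 0.67 to 3.22, adjusted p = 0.0591), from a mean of 40.0 ± 32.8 to 138 ± 56.7 CPM (SD, n = 3 each). DUSP5 differed by 1.01 (SE 0.42, interval 0.04 to 1.97, adjusted p = 0.169) and EGR3 by 1.06 with an SE of 0.90 (adjusted p = 0.490). The values were 0.63 for EGR1, 0.62 for IER2, 0.57 for IER3, 0.56 for IER5, 0.42 for DUSP1 and 0.02 for EGR2, with adjusted p between 0.201 and 0.975. The SEs and intervals draw on the spread of all genes. The libraries of each gene alone gave a larger SE, of 0.73 for DUSP6, 0.53 for DUSP5 and 1.23 for EGR3. Over the alternatives EGR3 ranged from 0.25 without replicate 2 of SCR AAI to 1.92 without replicate 3 of SCR DMSO, EGR1 from 0.21 to 1.27 and IER5 from 0.13 to 0.88, all positive. Thus 0 of 9 were called, where 7.73% of all genes tested were called higher and 2.73% lower. Median-ratio scaling lowered the median of all genes by 0.19 here and by 0.11 in siB cells, and turned the split of 1100 higher and 389 lower calls into 925 and 698. The groups separated completely for 0 of the 9 genes, against 22.2% of all genes separated upwards and 11.5% downwards.

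Same-numbered SCR DMSO and SCR AAI libraries deviated together from their group means, with correlations over genes between 0.355 and 0.487 for the 3 pairs. With the replicate number as a block, DUSP6 (1.94, SE 0.30, adjusted p = 0.00433) and DUSP5 (1.01, SE 0.20, adjusted p = 0.0125) were both called higher, against 9.69% of all genes in that fit. These SEs draw on the spread of all genes, where the 3 pairs alone gave 0.46 for DUSP6 and 0.19 for DUSP5. Within each pair, DUSP6 was higher with AAI in 3 of 3, and DUSP5 likewise. DUSP6 also passed without replicate 2 (1.67, adjusted p = 0.0303) or replicate 3 (2.55, adjusted p = 0.0150) of SCR DMSO, but over all alternatives its adjusted p ranged up to 0.214.

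In siB cells, 7 of the 9 differences with AAI were negative and those of IER2 and DUSP1 positive (IER2 at -0.01 under median-ratio scaling), with a median of -0.20 against 0.10 over all genes tested. This count rested on 1 library, since without replicate 1 of siB AAI only EGR1, EGR2 and IER5 stayed negative, 3 of 9, and EGR3 and DUSP6 were both at 0.13. EGR1 differed by -0.37 (SE 0.15, interval -0.71 to -0.04, adjusted p = 0.0605), from 30.1 ± 1.43 to 23.2 ± 3.90 CPM (SD, n = 3 each). EGR2 differed by -0.51 (adjusted p = 0.107) and EGR3 by -0.45 (adjusted p = 0.508). The feedback phosphatases DUSP5 and DUSP6 differed by -0.22 (interval -0.62 to 0.17) and -0.20 (interval -0.73 to 0.33). The DUSP6 interval used an SE of 0.24 that draws on the spread of all genes. The libraries of DUSP6 alone gave 0.33, so the upper end of this interval does not bound an increase. IER2, IER3, IER5 and DUSP1 lay between -0.08 and 0.19. None of the 9 was called, where 13.9% of all genes were called higher and 5.79% lower. EGR1 was the only one of the 9 whose groups did not overlap, with AAI lower, against 34.2% of all genes separated upwards and 26.6% downwards.

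Under AAI, 8 of 9 differences between siB and SCR cells were negative, with a median difference of -0.34 against 0.00 over all genes tested. DUSP1 was the 1 gene with an adjusted p under 0.05: its mean was 106 ± 11.9 CPM with the scrambled siRNA against 68.0 ± 6.08 CPM with the POLR2A siRNA (SD, n = 3 each), a difference of -0.63 (SE 0.16, interval -0.97 to -0.28, adjusted p = 0.0300), which is under the 2-fold limit. Leaving out replicate 2 or 3 of SCR AAI or any 1 siB AAI library took its adjusted p to between 0.0583 and 0.131. IER3 differed by -0.62 (SE 0.22, adjusted p = 0.0993), IER5 by -0.50 (adjusted p = 0.242) and EGR1 by -0.44 (adjusted p = 0.525). DUSP6 differed by -0.34, EGR2 by -0.31, DUSP5 by -0.22 and IER2 by -0.21, and EGR3 by 0.09, with adjusted p between 0.437 and 0.951. At the full call 0 of 9 passed, where 3.04% of all genes were called higher and 0.629% lower; by adjusted p alone DUSP1 was 1 of 9, where 3.79% of all genes were lower. DUSP1 was also the only gene of the 9 whose groups did not overlap, against 15.8% of all genes separated downwards and 15.1% upwards.

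Same-numbered SCR AAI and siB AAI libraries also deviated together, with correlations of 0.301 to 0.635. However, replicate 2 of SCR AAI correlated with replicate 3 of siB AAI at 0.243, and replicate 3 with replicate 2 at 0.236. These lie near the same-numbered 0.328 and 0.301, so the pairing of replicates 2 and 3 by number is uncertain. With the replicate number as a block, 4 genes had an adjusted p under 0.05, all lower in siB cells and all under the 2-fold limit, where 13.8% of all genes were lower by the same criterion. These were DUSP1 (adjusted p = 2.7e-04), IER3 (adjusted p = 2.8e-04), IER5 (adjusted p = 0.00529) and EGR1 (adjusted p = 0.0222). DUSP1, IER3 and IER5 were lower in siB cells in 3 of 3 pairs and EGR1 in 2 of 3, being higher in pair 1, at 19.1 against 12.5 CPM. In this fit limma took the spread from the trend over all genes alone, which gave EGR1 an SE of 0.16, where the 3 pairs of EGR1 themselves gave 0.51. Without replicate 1 of SCR AAI, EGR1 differed by -1.08 in the fit without the block (adjusted p = 0.00104) and was then called lower. Over all alternatives its difference ranged from -1.08 to -0.11, with limma adjusted p up to 0.906.

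Without AAI, 8 of 9 differences between siB and SCR cells were positive and that of DUSP1 was negative (IER3 turned to -0.05 under median-ratio scaling), with a median difference of 0.31 against 0.06 over all genes tested. DUSP6 differed by 1.81 (SE 0.49, interval 0.63 to 2.98), from 40.0 ± 32.8 to 117 ± 2.18 CPM, and DUSP5 by 1.01 (SE 0.37, interval 0.11 to 1.90), from 90.4 ± 42.0 to 167 ± 8.01 CPM (SD, n = 3 each). EGR3 differed by 1.60 (SE 0.80) and EGR1 by 0.56 (SE 0.46), and the others lay between -0.40 and 0.31. The libraries of each gene alone gave an SE of 0.61 for DUSP6 and 0.45 for DUSP5. The adjusted p was 0.9998 for all 9, and in this comparison 0% of all genes were called higher and 0% lower. Of the 13606 genes tested, 644 had an unadjusted p under 0.05, a share no greater than 0.05 itself. POLR2A, the target of the siRNA, was not called either (-1.01, adjusted p = 0.505), although its siB libraries all lay below the SCR libraries. The lack of a call here thus does not show that a gene was unchanged. DUSP5 and DUSP6 were the 2 of 9 genes whose siB libraries all lay above the SCR libraries, where 8.28% of all genes separated upwards and 3.64% downwards. The SCR DMSO libraries entered both this comparison and that of AAI in SCR cells, so the similar DUSP5 and DUSP6 values in both share the same low controls.

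The difference between the AAI effect in siB and in SCR cells was negative for all 9 genes, with a median of -0.65 against -0.06 over all genes tested. The 9 signs are not independent, since all rest on the same 12 libraries. Among these are the SCR DMSO controls, where DUSP6 was at 20.2 and 22.0 CPM in replicates 1 and 2. DUSP6 had the largest value, -2.14 (SE 0.68, interval -3.62 to -0.66), followed by EGR3 at -1.51 (SE 1.22), DUSP5 at -1.23 (SE 0.50) and EGR1 at -1.004 (SE 0.73). The libraries of each gene alone gave an SE of 0.80 for DUSP6 and 0.58 for DUSP5. The adjusted p was 0.165 for DUSP6 and 0.303 for DUSP5, and between 0.476 and 0.853 for the other 7 genes. None was called, where 1.46% of all genes were called higher and 0.157% lower. DUSP6 without replicate 3 of SCR DMSO (-2.75, adjusted p = 0.0399) and IER2 without replicate 2 of SCR DMSO (-0.79, adjusted p = 0.0322) passed. Of 15325 genes, the fit without replicate 3 called 13 lower and that without replicate 2 called 512 lower, against 24 with all libraries. With the replicate number as a block over all 12 libraries, DUSP6 was called lower (-2.14, SE 0.46, adjusted p = 0.0373) and DUSP5 was not (-1.23, SE 0.30, adjusted p = 0.0621), where 0.666% of all genes were called lower in that fit. From its own spread alone in that fit, DUSP6 had an SE of 0.59 and DUSP5 of 0.35. Same-numbered deviations correlated above 0.1 in all 3 pairs for 2 of the 6 group pairs in it. Without the block, a difference between the AAI responses of SCR and siB cells was not shown for DUSP5 or DUSP6.

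**Figure D3:**
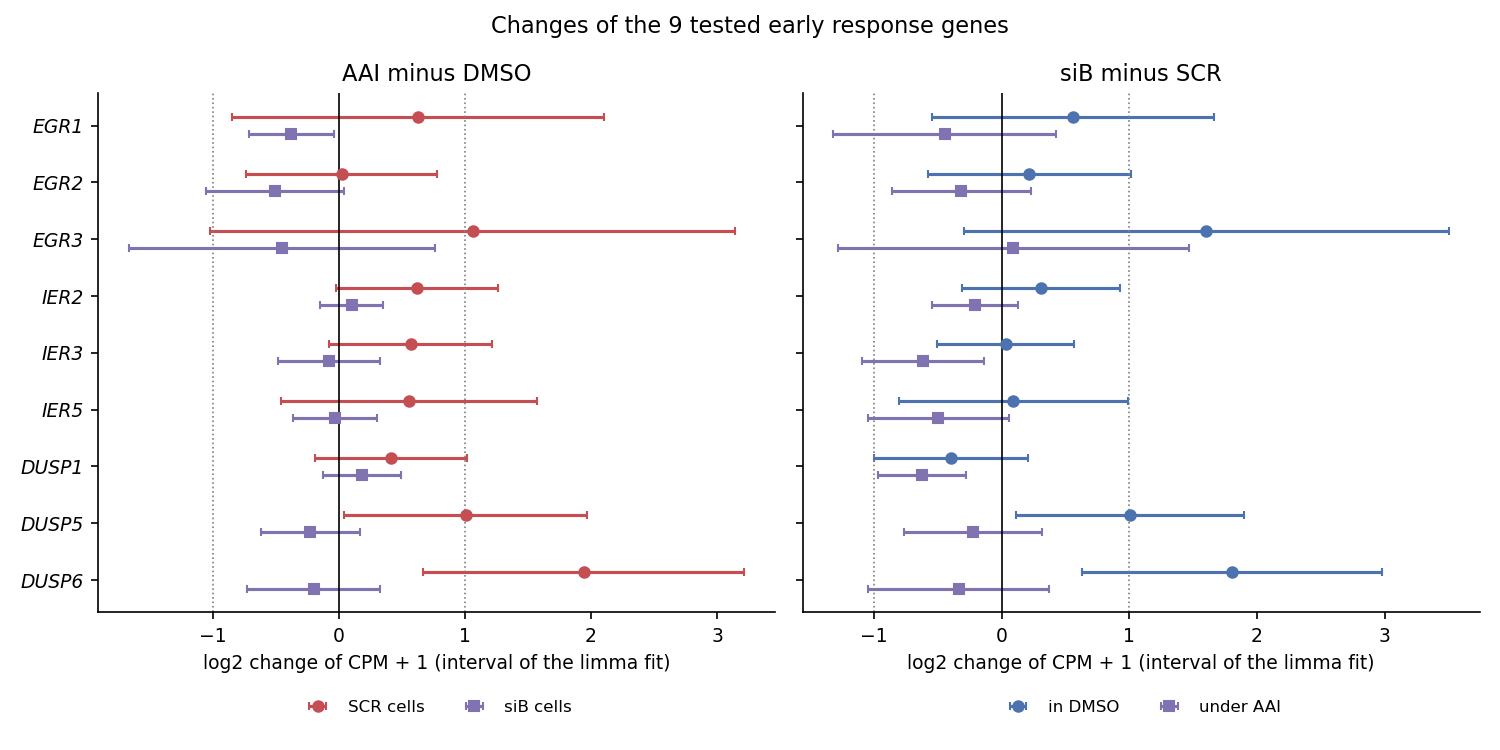
Differences of log2(CPM + 1) for the 9 tested genes with 95% intervals (horizontal axes), AAI minus DMSO on the left in SCR (circles) and siB (squares) cells, and siB minus SCR on the right in DMSO (circles) and under AAI (squares). Dotted lines mark 2-fold. DUSP6 lies at 1.94 with AAI in SCR cells and at 1.81 with siB in DMSO, against -0.20 and -0.34 in the other comparisons.

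The spread between libraries of a group was itself uneven over the set. The pooled SD within groups of log2(CPM + 1) was 1.28 for EGR3, 0.75 for EGR1 and 0.70 for DUSP6, at the 99.9th, 96.9th and 95.7th percentiles of 15325 genes, whose median was 0.29. IER5 (0.51) and DUSP5 (0.50) lay at the 86.3th and 86.0th percentiles, and EGR2 (0.40) and IER3 (0.33) at the 74.9th and 61.7th. IER2 (0.27) and DUSP1 (0.26) were steadier than the median gene, at the 44.2th and 43.3th percentiles.

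Some of the variable genes varied together. Over the 12 libraries, EGR1, EGR3, DUSP5 and DUSP6, grouped after their values were seen, had pairwise Pearson correlations of 0.65 to 0.91 (median 0.75 over 6 pairs), with DUSP5 and DUSP6 the closest pair. After the group means were removed, the 6 correlations were 0.63 to 0.88, with EGR1 and DUSP6 the closest pair. IER5 ran the other way, with a correlation of deviations of -0.96 with EGR1 and -0.93 with DUSP6, and went with IER2 at 0.69. The 4 were not set apart from the rest, since DUSP5 correlated in deviations at 0.81 with EGR2 and at 0.80 with IER3. In deviations, DUSP1 stayed near 0 with DUSP5 and at 0.63 with IER2. These are descriptions over 12 libraries that share depth, group and replicate number between genes.

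**Figure D4:**
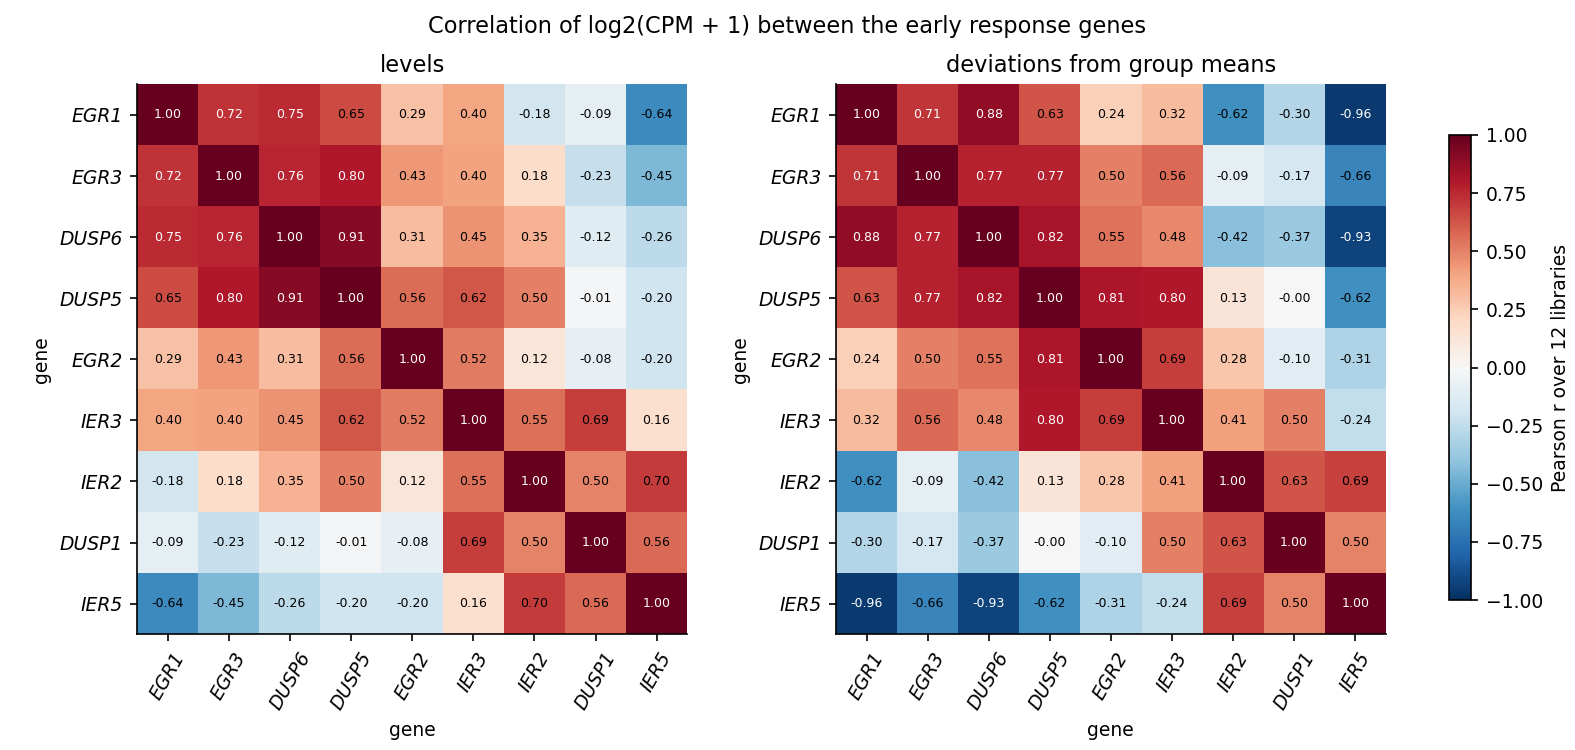
Pearson correlations of log2(CPM + 1) between the 9 tested genes over 12 libraries, for levels (left) and for deviations from the group means (right); red is positive and blue negative, with the value in each cell. EGR1, EGR3, DUSP6 and DUSP5 lie between 0.63 and 0.88 among themselves in the deviations, EGR2 is at 0.81 with DUSP5, and IER5 stands at -0.96 with EGR1.

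Among genes with a mean of at least 5 CPM, the profile most like that of DUSP6 over the 12 libraries was that of GPRC5C (Pearson r = 0.96), followed by AREG (0.93), an EGF receptor ligand, and SERPINB8 (0.93). FOSL1, an AP-1 subunit, was the most like DUSP5 (0.96), before LRRC8E and DUS3L (both 0.92). ZNF460 (0.88), ZNF544 and VDR (both 0.86) were closest to EGR1, and TUBA1C (0.87), DRG1 and NQO1 (both 0.85) to EGR2. NOVA2, STUM and HS3ST4 followed EGR3 at 0.99 each. RBM38 (0.97), ANAPC11 (0.96) and SCRIB (0.95) were closest to IER2, PTBP1, SLC3A2 (both 0.96) and MRPL2 (0.95) to IER3, and CCHCR1 (0.96), ARRDC2 (0.93) and ZCCHC3 (0.92) to IER5. CLASRP (0.93), P2RY11 (0.91) and TFE3 (0.89) were closest to DUSP1.

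Related genes of the same families and pathways are given beside the share of all genes in the same comparison, which in SCR cells with AAI was 7.73% called higher and 2.73% lower. Of 8 tested family relatives, 1 rose: DUSP2, a nuclear MAP kinase phosphatase, from 7.51 ± 2.29 to 22.7 ± 4.29 CPM (1.50, SE 0.30, adjusted p = 0.0156), a call lost without replicate 3 of SCR DMSO or any 1 SCR AAI library. Of 13 inhibitors of the ERK pathway, 2 rose and none fell. SPRED3 rose from 3.83 ± 1.07 to 13.1 ± 0.66 CPM (1.57, adjusted p = 0.00677), and SPRY4 from 10.7 ± 3.40 to 24.9 ± 3.58 CPM (1.17, adjusted p = 0.0371), the latter called in 9 of 16 alternatives and lost with no filter, with a mean of at least 5 CPM, under median-ratio scaling, and without replicate 1 of SCR DMSO or any 1 SCR AAI library. Of 18 genes known to respond to ERK, only PHLDA2 was called (1.30, adjusted p = 0.0441), and in 7 of 16 alternatives; the call was lost with no filter, with a mean of at least 5 CPM, under median-ratio scaling, with limma's voom weights on recovered reads, and without replicate 1 or 3 of SCR DMSO or any 1 SCR AAI library. Of 35 other immediate early genes, 5 rose and none fell, with KLF4 (1.72), FOSB (1.70) and ATF3 (1.52) the largest. FOSB lost its call without replicate 2 or 3 of SCR AAI, and KLF4 and ATF3 kept theirs in 16 of 16 alternatives. The count of 5 was 2 without replicate 3 of SCR AAI and 9 without replicate 2 of SCR DMSO, and 2 fell under median-ratio scaling or without replicate 2 of SCR DMSO. None of 8 EGR cofactors and serum response factors, 19 kinases and adaptors of the ERK cascade and 15 p38 and JNK kinases was called. Nor was any of 10 factors that bind AU-rich mRNA elements or act in mRNA decay. With the replicate number as a block, 3 ERK-responsive genes of 18 were called higher and 2 p38 and JNK kinases of 15 lower, where that fit called 9.69% of all genes higher and 3.79% lower.

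In siB cells with AAI, related genes were called in both directions, beside 13.9% of all genes called higher and 5.79% lower. Of the 13 ERK inhibitors, SPRED3 rose (2.33, adjusted p = 5.45e-06) and none fell. Of the 18 ERK-responsive genes, 3 rose, HBEGF (2.08), EPHA2 (1.34) and EREG (1.13), and MYC fell by 1.21 on the log2 scale. The EREG call was lost with all 4 groups in the fit and without replicate 3 of siB DMSO or replicate 2 or 3 of siB AAI. Of 34 other immediate early genes, 5 rose, led by ATF3 (2.05), FOSB (1.81) and FOS (1.55), and 4 fell, led by SIK1 (-1.65), CYR61 (-1.55) and TRIB1 (-1.52). In the ERK cascade the scaffold KSR1 fell by 1.19, and among p38 and JNK kinases MAP2K6 fell by 1.35 and MAP3K5 by 1.04, the last lost without replicate 1 of siB DMSO or of siB AAI. The 8 family relatives, 8 cofactors and 10 AU-rich element or decay factors gave no call.

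Between siB and SCR cells under AAI, CYR61, a secreted matrix protein gene, was the only related gene called (-1.13, adjusted p = 0.00938), and not without replicate 3 of SCR AAI. In DMSO none was called. In the test of the difference between AAI effects, where 0.157% of all genes were called lower, only ZFP36L2, an mRNA decay factor that is itself an immediate early gene and stands in both of those lists, was called (-1.13, adjusted p = 0.0272), in 9 of 20 alternatives. Its call was lost with a pseudocount of 0.1, with a mean of at least 5 CPM, with voom, and without replicate 1 of SCR DMSO, replicate 2 or 3 of SCR AAI, any 1 siB DMSO library or replicate 2 or 3 of siB AAI. With the replicate number as a block, 4 of 35 other immediate early genes were called lower, beside 0.666% of all genes. The median difference between AAI effects was -0.59 for the ERK-responsive genes and -0.40 for the other immediate early genes. It was -0.65 for the EGR, IER and DUSP genes and -0.06 for all genes tested. The AU-rich element or decay factors and the family relatives were both at -0.38, close to the other immediate early genes. For the p38 and JNK kinases it was -0.16, for the cofactors -0.14, for the ERK inhibitors -0.01 and for the ERK cascade 0.01.

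**Figure D5:**
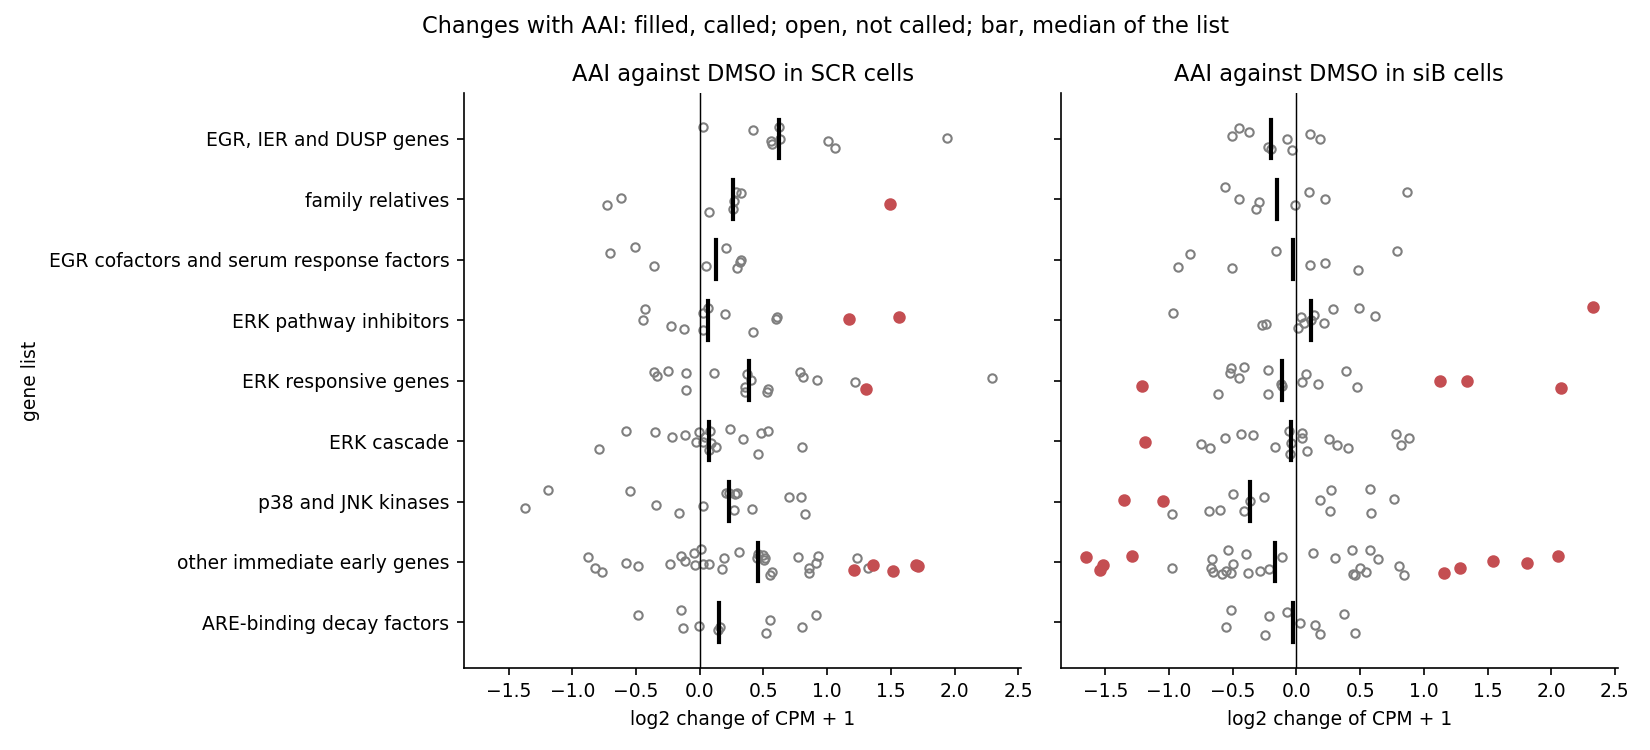
Differences of log2(CPM + 1) with AAI (horizontal axes) in SCR cells (left) and siB cells (right) for each gene of the set and of the related lists, with filled points called, open points not called, and black bars at the median of each list. The EGR, IER and DUSP genes have a median of 0.62 in SCR cells and -0.20 in siB cells, with no filled point.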

How the data were processed

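RNA of HK-2 cells was made into 12 paired-end libraries, which, per the study's methods, were aligned to hg38 and quantified per gene with the UCSC annotation; aligner, strand setting and counter are not given in the sources used here. The authors deposited 1 table of log10 values, log10(CPM + 1). CPM was recovered from it, and whole reads from the CPM steps (100% of low values whole within 0.02 read). From there, log2(CPM + 1) was fitted per comparison with limma 3.58.1 (R 4.3.3) with a mean-variance trend, over genes with at least 1 CPM in at least 3 libraries fitted, with Benjamini-Hochberg adjustment over all genes tested. Calls needed an adjusted p under 0.05 and 2-fold; the difference between AAI effects used all 4 groups and no fold limit. Only the fit of AAI against DMSO in SCR cells, without the block, was run on simulated counts. These were drawn independently for each library with the same set dispersion for every gene. The fits with the block and of the difference between AAI effects were not simulated. Depth was 15844015 to 42805294 reads per library; the 3-read limits cover counting error only. Replicate numbers were taken to pair groups where every same-numbered correlation of deviations exceeded 0.1, as for SCR DMSO with SCR AAI and SCR AAI with siB AAI. The 10 genes were named throughout, with POLR2A, up to 3 called genes per list and direction, and the 3 most similar profiles per gene. The genes and lists were chosen with earlier results of these data known. Alternatives were other pseudocounts, filters, scalings, samples, tests, fold limits and left-out libraries. Promoters came from RefSeq, gene models from GENCODE 44.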

Additional observations from a re-analysis of the deposited data

How the results depend on the processing

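Of the differences of the 9 genes recomputed under alternatives, 722 kept their direction and side of the threshold, 10 passed a threshold they had missed and 19 changed sign. By size, 40 of 45 differences moved by over 1.5 times, or turned, in some alternative; the other 5 were DUSP6 with AAI in SCR cells, with siB in DMSO and in the difference between AAI effects, IER2 with AAI in SCR cells, and DUSP1 with siB under AAI. The number of genes called higher with AAI in SCR cells, 0 as reported, was 1 with all 4 groups in the fit (DUSP6), 2 with the replicate block (DUSP5 and DUSP6), and 0 to 1 when a library was left out. The number lower in siB than in SCR cells under AAI was 1 with no fold limit (DUSP1) and 0 to 1 when a library was left out. For the difference between AAI effects it was 1 with the replicate block (DUSP6, adjusted p = 0.0373) and 0 to 1 when a library was left out. Same-numbered deviations correlated at -0.20 to 0.74 between SCR DMSO and siB DMSO and at 0.03 to 0.22 between siB DMSO and siB AAI, so those numbers were not taken as pairs. They correlated at -0.29 to 0.43 between SCR AAI and siB DMSO and at -0.03 to 0.41 between SCR DMSO and siB AAI. The numbers thus did not link SCR DMSO with siB AAI, although both were taken as paired with SCR AAI. With AAI in siB cells, the replicate block gave EGR1 -0.37 (adjusted p = 0.0351), under the fold limit. Median-ratio scaling reversed EGR2 with AAI in SCR cells (-0.15), IER2 with AAI in siB cells (-0.0085) and IER3 with siB in DMSO (-0.052). Leaving out 1 library at a time turned the sign of some differences. With AAI in SCR cells, EGR2 ranged from -0.33 to 0.22. With AAI in siB cells, EGR3 ranged from -1.05 to 0.13, IER3 from -0.21 to 0.14, DUSP5 from -0.36 to 2.3e-05 and DUSP6 from -0.41 to 0.13, each turning positive without replicate 1 of siB AAI, and IER5 ranged from -0.17 to 0.062. With siB under AAI, EGR3 ranged from -0.51 to 0.90. With siB in DMSO, EGR2 ranged from -0.14 to 0.41, IER3 from -0.15 to 0.24 and IER5 from -0.33 to 0.42. The cause was not tested. Depth limits DUSP4 and EGR2 most, and the spread between 3 libraries limits EGR1, EGR3 and DUSP6.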
